A study of Homo sapiens with 14 samples.

Results

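Collagen is made by a dedicated line of enzymes, chaperones, transport factors, proteases and crosslinking enzymes. The 40 genes of this line described here were taken by symbol: the enzymes that hydroxylate and glycosylate procollagen, its chaperones, the factors that carry it out of the endoplasmic reticulum (ER), the proteases that trim its ends and the lysyl oxidase family that crosslinks the fibrils. Each symbol matched 1 of the 60587 gene identifiers in the deposited tables, and 40 of 40 members passed the filter on low counts that left 17838 genes to test. Cartilage pellets were grown in chondrogenic medium from WA01 (H1), an established line of human embryonic stem cells. RNA of whole pellets was sequenced on 3 days of that culture, with 4 libraries for day 21 and 5 each for days 30 and 45. Every library comes from this 1 line, with no other genotype or agent between the groups. Nothing in the labels tells separate cultures from repeat preparations, so the tests see the spread of these libraries alone, which may be technical.

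Procollagen chains are hydroxylated on proline and lysine and glycosylated in the ER, where chaperones hold them while they wind into a triple helix. The rod-shaped trimer leaves in large carriers made with the COPII coat, and proteases then remove its propeptides so that it can join a fibril. Lysyl oxidases convert lysine and hydroxylysine of the assembled collagen to reactive aldehydes, and the crosslinks that follow give cartilage its tensile strength. The cells of cartilage make mostly type II collagen, and hydroxyproline keeps its helix stable at body temperature.

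The libraries held 18183776 to 33660704 expected counts. The chondrocyte markers summed to 32339 to 42543 CPM (read counts relative to library size after TMM scaling) at day 21, 84845 to 205488 at day 30 and then 182437 to 292839 at day 45. All of them but MATN1 rose from day 21 to day 45. From day 30 to day 45 ACAN and COMP rose, MATN1 and COL9A1 fell, and the others did not pass an adjusted p below 0.05. For the library titled day 45 replicate 1 the treatment label gives 30 days instead, and it was used at day 45. Day 30 replicates 3 to 5 stood apart from replicates 1 and 2, since their deviations from the mean of all libraries correlated across genes with gene length at a Spearman rho of -0.43, -0.52 and -0.47, against -0.01 and -0.07. Defining markers of skeletal muscle (MYOD1, MYOG, CKM), endothelium (PECAM1, CDH5, VWF) and epithelium (EPCAM, CDH1, ESRP1) and the 5 blood markers were under 0.5 CPM in every library. Other genes of these lists were expressed: the epithelial list summed to 59.2 to 79.1 CPM at day 21 and 51.5 to 83.2 at day 45, most of it KRT8, with KRT19 higher by 2.13 on the log2 scale. The endothelial list summed to 24.0 to 32.4 CPM at day 21 and then 8.52 to 11.8, most of it KDR, and the skeletal muscle list to 5.06 to 5.84 and then 1.65 to 3.09, most of it MYH3. The 6 osteoblast markers summed to 92.5 to 287 CPM at day 21 and 46.7 to 88.7 at day 45, and the 7 tendon and fibrous tissue markers to 1008 to 1489 and 1006 to 1529. Genes within these lists moved in opposite directions from day 21 to day 45. Among osteoblast markers SP7 and ALPL rose and SPP1 and DMP1 fell. Among tendon and fibrous tissue markers THBS4 and DCN rose and SCX, TNMD, MKX and LUM fell. In the endothelial list TEK rose and KDR fell. The neuron list summed to 20.9 to 26.1 CPM at day 21 and 21.3 to 26.6 at day 45, and the smooth muscle list to 8.56 to 15.9 and 13.1 to 23.1. The melanocyte and Schwann cell list stood at 2.9 to 4.3 and 2.9 to 4.2, and the adipocyte list at 0.778 to 1.37 and 1.11 to 1.84. Genes of the first 3 of these lists also moved both ways. The pluripotent stem cell list was at 13.8 to 17.3 CPM at day 21 and 0.353 to 1.35 at day 45. The part of the cells behind all these markers in the results below was not tested.

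Most members were higher at day 45 than at day 21. Of the 40, 24 rose, 6 fell and 10 did not pass an adjusted p below 0.05 in edgeR's quasi-likelihood test. That is 75.0% of the members called, where 57.7% of all genes tested were called (27.1% higher, 30.5% lower). The median log2 fold change was 0.49 over the members and -0.05 over all genes. The members that rose more than 2-fold were P4HA2, PLOD2, TMEM38B, P3H2, SPARC, COLGALT1, COLGALT2, PCOLCE2, ADAMTS2 and LOX. Those that fell more than 2-fold were ADAMTS14, TLL1 and PCOLCE, all of propeptide removal. How many of all genes tested passed this cut was not counted, so the names are a description. These fold changes are relative to the typical gene after TMM scaling. On the TPM scale, which fixes the sum of all transcripts, the median of all genes moved by -0.34 from day 21 to day 45, by -0.35 from day 21 to day 30 and by 0.01 from day 30 to day 45. Calls on TPM + 1 over all genes were 2140 higher and 8720 lower at day 45, against 4836 and 5448 here, and 14 members were higher and 13 lower on that scale. Relative to that median, the 30 members called kept their sign on TPM. In whole pellets, fewer cells of a type and less RNA per cell cannot be told apart.

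**Figure D1:**
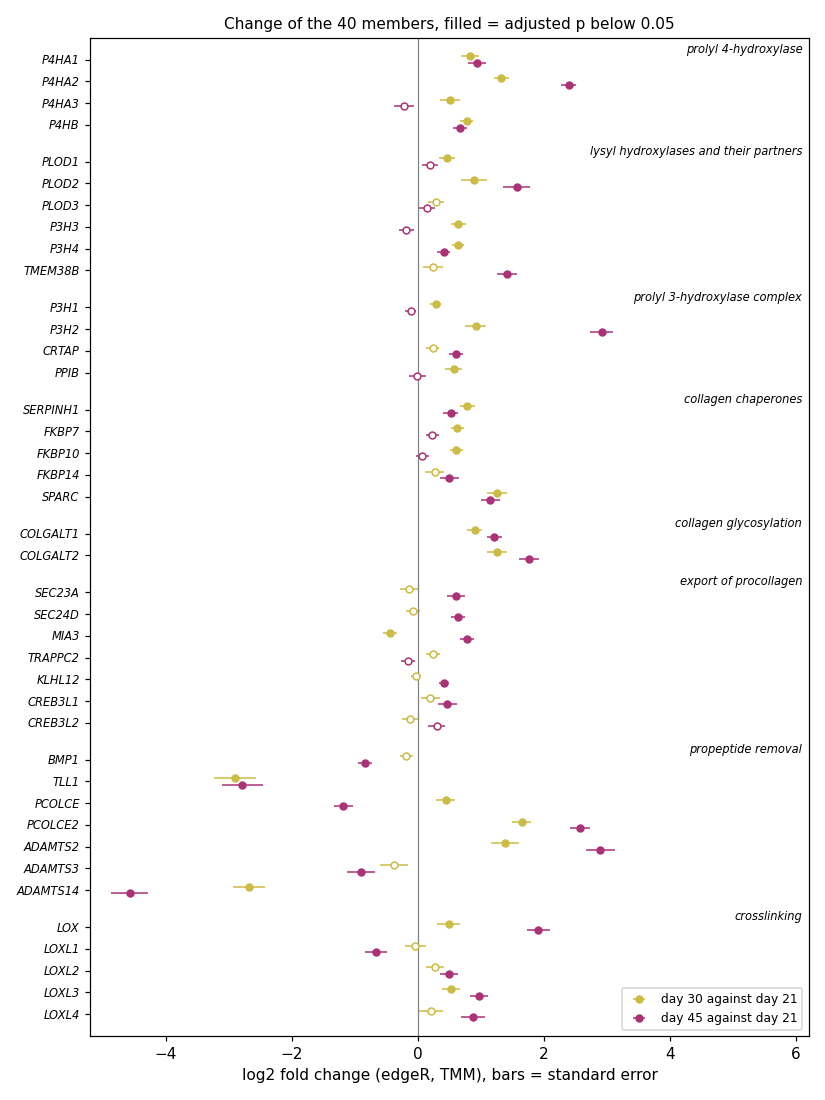
Log2 fold change (x axis, edgeR with TMM scaling, bars are standard errors) of each of the 40 members, grouped by role, for day 30 (yellow) and day 45 (purple) against day 21; filled points have an adjusted p below 0.05. P4HA2, P3H2, PCOLCE2 and ADAMTS2 lie farthest to the right at day 45, and ADAMTS14 and TLL1 farthest to the left.

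By role, from day 21 to day 45, 2 of 2 collagen galactosyltransferases rose, with 2 on TPM + 1 as well. Of 4 prolyl 4-hydroxylase subunits 3 rose and 0 fell (3 and 1 on TPM + 1), and of 5 crosslinking enzymes 4 rose and 1 fell (2 and 1 on TPM + 1). Of 7 export factors 5 rose and 0 fell (1 and 1 on TPM + 1), and of 5 chaperones 3 rose and 0 fell (1 and 1 on TPM + 1). Of 6 lysyl hydroxylases and partners 3 rose and 0 fell (2 and 2 on TPM + 1), and of 4 genes of the prolyl 3-hydroxylase complex 2 rose and 0 fell (1 and 2 on TPM + 1). Propeptide removal had more fallers than risers on both scales, with 2 risers and 5 fallers of 7.

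The promoters of LOX, PLOD2 and P4HA1 are shown because these are members well known to be induced at low oxygen. Whether low oxygen acted on them here was not tested. LOX is the founding lysyl oxidase, PLOD2 the lysyl hydroxylase of the collagen ends and P4HA1 a catalytic subunit of prolyl 4-hydroxylase. The windows are the 250 bases before the RefSeq start on the minus strand of GRCh38.p14, at chr5:122078260-122078509 for LOX, chr3:146161185-146161434 for PLOD2 and chr10:73096867-73097116 for P4HA1. Capitals mark ACGTG and GCGTG, the cores of hypoxia response elements, on either strand (CACGT and CACGC are their other strands, and ACGTG is also part of the E-box CACGTG).
LOX: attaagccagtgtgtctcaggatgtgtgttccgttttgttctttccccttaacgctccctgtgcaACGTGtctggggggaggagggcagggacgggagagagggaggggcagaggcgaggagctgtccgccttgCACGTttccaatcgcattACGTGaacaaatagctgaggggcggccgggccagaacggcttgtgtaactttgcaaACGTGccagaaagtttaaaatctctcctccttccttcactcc
PLOD2: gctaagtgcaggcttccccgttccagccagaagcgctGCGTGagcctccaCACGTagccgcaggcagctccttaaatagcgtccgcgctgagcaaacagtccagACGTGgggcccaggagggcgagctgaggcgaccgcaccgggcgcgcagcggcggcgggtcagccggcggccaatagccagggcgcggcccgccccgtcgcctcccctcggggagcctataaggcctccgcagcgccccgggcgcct
P4HA1: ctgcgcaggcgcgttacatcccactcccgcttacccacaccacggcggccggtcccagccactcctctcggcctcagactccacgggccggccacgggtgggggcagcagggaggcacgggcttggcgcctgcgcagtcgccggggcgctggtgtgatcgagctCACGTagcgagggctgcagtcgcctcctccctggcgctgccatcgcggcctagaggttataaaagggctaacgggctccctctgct
The LOX window held 4 copies of ACGTG, at 185, 116, 98 and 42 bases before the start. PLOD2 held GCGTG at 213 bases and ACGTG at 200 and 146 bases before the start, and P4HA1 held 1 ACGTG at 86 bases. Over windows of 300 bases, from 250 before to 50 after the start, ACGTG was found in 8 of the 32 members with an entry (25%) and in 21.6% of all 27305 windows. GCGTG was found in 16 of 32 (50.0%) and 36.3%. At least 4 copies of ACGTG were found in 243 of 27305 windows (0.89%), LOX among them. P4HA2, the prolyl 4-hydroxylase gene that rose most, held neither in its window at chr5:132227042-132227341. That window lies inside the GENCODE span of this minus-strand gene, which ends at 132295315, and the upstream end was not searched. The same holds for the PLOD2 window shown above, since the span of PLOD2 ends at 146163653. A match is a description of letters and not of binding.

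Of 15 genes known to be induced at low oxygen, with collagen enzymes left out of the list, 14 rose and 0 fell from day 21 to day 45 (14 and 0 on TPM + 1), with a median log2 fold change of 1.87. Their summed level was 1416 ± 382 CPM at day 21 (SD, n = 4). It was 3196 ± 134 CPM at day 30 and 4909 ± 512 CPM at day 45 (both SD, n = 5). From day 21 to day 30, 14 of 15 rose, and from day 30 to day 45, 7 of 15. In the same RefSeq table ACGTG was in 8 of 13 of them (61.5%) and GCGTG in 7 of 13. Neither core was particular to this list. ACGTG was in 10 of 19 windows of general COPII and ER exit genes and GCGTG in 11 of 19. For general ER folding these were 6 of 15 and 11 of 15. The collagen chains had 2 of 10 and 3 of 10, and the CREB3 family with its site proteases 1 of 5 for each. Whether the members that rose share a cause with the genes induced at low oxygen was not tested.

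Prolyl 4-hydroxylase is a tetramer of catalytic alpha subunits (P4HA1, P4HA2, P4HA3) and protein disulfide isomerase (P4HB), and it makes the hydroxyproline of the helix. P4HA2 (chr5:132191838-132295315, minus strand, GRCh38, GENCODE 29) was at 98.2, 83.3, 70.9 and 79.3 CPM at day 21, at 211, 217, 242, 186 and 179 at day 30, and at 498, 404, 432, 403 and 441 at day 45. The 3 days did not overlap, and each step was upward. Its log2 fold change was 1.32 ± 0.12 (SE) at day 30 against day 21 (adjusted p = 1.04e-07) and 1.07 ± 0.11 (SE) at day 45 against day 30 (adjusted p = 6.83e-07), which is 5.25-fold from day 21 to day 45. P4HA1 was at 247 to 299 CPM at day 21, 354 to 603 at day 30 and then 495 to 554 at day 45. It rose by 0.82 ± 0.14 (SE) from day 21 to day 30 (adjusted p = 9.10e-05) and did not pass from day 30 to day 45 (0.11 ± 0.13, adjusted p = 0.480). Its later change was below its earlier one by -0.71 ± 0.22 (adjusted p = 0.0134), whereas for P4HA2 that difference was -0.25 ± 0.19 (adjusted p = 0.286). On TPM + 1 the early rise of P4HA1 was 0.34 (adjusted p = 0.0864) and its difference between the intervals -0.19 (adjusted p = 0.581), neither called.

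P4HB was the most abundant of the 4 per length, with means and SDs of 952 ± 41.8 TPM at day 21 (n = 4), 1234 ± 119 at day 30 (n = 5) and 1112 ± 41.9 at day 45 (n = 5). In CPM it was at 1017, 951, 843 and 979.7 at day 21, at 1663, 1466, 1872, 1647 and 1440.1 at day 30, and at 1594, 1533, 1571, 1404 and 1436 at day 45. Day 21 lay below both later days, which overlapped, and the log2 fold change from day 21 to day 45 was 0.67 ± 0.11 (SE, adjusted p = 4.56e-05). P4HA3, the least abundant alpha subunit, was at 21.6, 22.3, 14.2 and 18.2 CPM at day 21, at 25.1, 19.8, 34.4, 27.9 and 28.5 at day 30, and at 19.2, 17.6, 15.3, 16 and 13.6 at day 45. It was highest at day 30 and fell from day 30 to day 45 by 0.73 ± 0.15 (SE, adjusted p = 4.86e-04), with no call from day 21 to day 45 (-0.22 ± 0.16, adjusted p = 0.229). Its rise from day 21 to day 30 (0.51 ± 0.16, adjusted p = 0.0103) was not called without day 30 replicates 3 to 5 (0.23, adjusted p = 0.313). On TPM + 1 that early change of P4HA3 was 0.03 (adjusted p = 0.881), and it was lower at day 45 than at day 21 (-0.61, adjusted p = 9.08e-04).

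**Figure D2:**
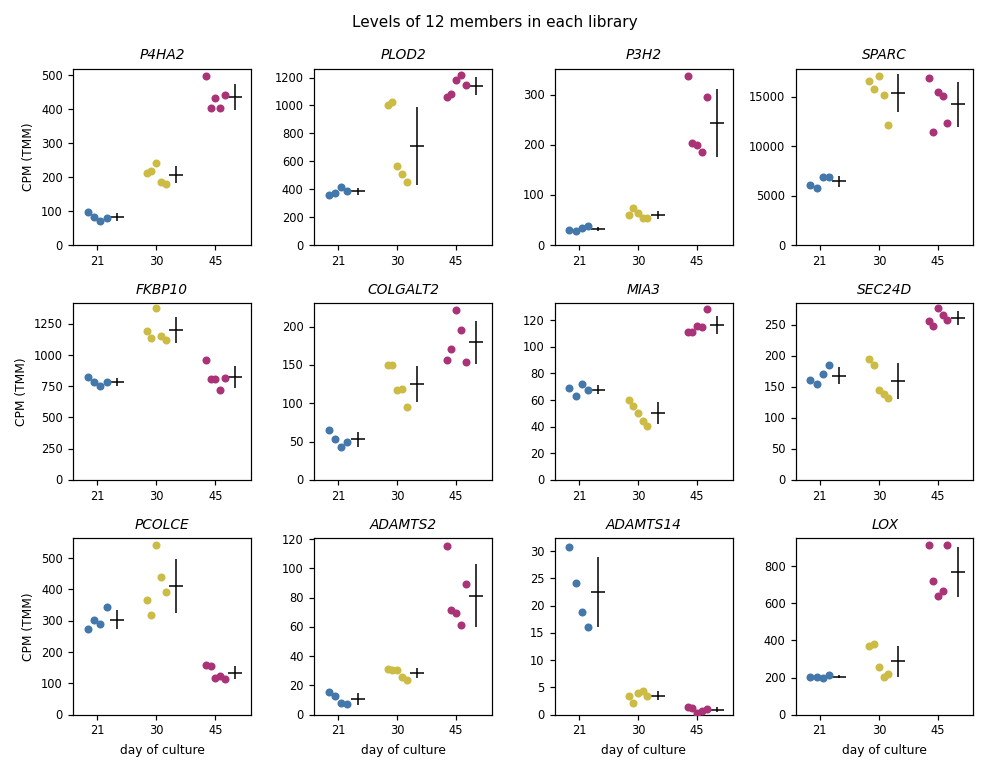
CPM after TMM scaling (y axis, from 0) of 12 members in each of the 14 libraries against day of culture (x axis); points are libraries, bars mean and SD. P4HA2 and ADAMTS2 were higher on each later day, FKBP10 was highest at day 30, MIA3 was lowest at day 30, and the day 30 libraries of PLOD2 split into 1006 and 1023 CPM in replicates 1 and 2 and 453 to 565 in the others.

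Lysyl hydroxylases set which lysines of collagen can carry sugars and which crosslinks form. PLOD2 (chr3:146069440-146163653), which acts on the telopeptides at the ends of the chains, was at 361, 372, 417 and 389 CPM at day 21 and at 1064, 1083, 1180.0, 1221 and 1146 at day 45. These ranges lay far apart, and the fold was 2.96 (log2 1.56 ± 0.21, SE, adjusted p = 7.12e-06). At day 30 it was at 1006 and 1023 CPM in replicates 1 and 2 and at 565, 508 and 453 in replicates 3, 4 and 5. The first pair lay just under the day 45 libraries and the other 3 nearer to day 21. Without those 3 libraries its change from day 30 to day 45 was 0.15 (adjusted p = 0.217) in place of 0.68 ± 0.19 (SE, adjusted p = 0.00657), and with the library titled day 45 replicate 1 at day 30 it was 0.59 (adjusted p = 0.0504).

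PLOD1, which hydroxylates lysines within the helix, was the most abundant of the group per length on average over the 14 libraries. It was at 679.5, 645, 491 and 601 CPM at day 21, at 843, 765, 1064, 783 and 719 at day 30, and at 716, 742, 725, 653 and 619 at day 45. Days 21 and 45 overlapped and day 30 lay above day 21: it rose by 0.47 ± 0.13 (SE) from day 21 to day 30 (adjusted p = 0.00529), a change that was -0.01 on the TPM scale. PLOD3, which also adds glucose to collagen, passed in none of these comparisons in CPM (0.15 ± 0.13 from day 21 to day 45), although its rise from day 21 to day 30 (0.29 ± 0.13, adjusted p = 0.0619) passed without day 30 replicate 2 (0.34, adjusted p = 0.0372) or 5 (0.34, adjusted p = 0.0418). On TPM + 1 PLOD3 was lower at day 45 than at day 21 (-0.41, adjusted p = 0.00310) and than at day 30 (-0.29, adjusted p = 0.0244).

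P3H3 and P3H4 are partners that hold PLOD1 in a complex, and TMEM38B is an ER potassium channel whose loss lowers lysine hydroxylation. P3H3 was at 206, 199, 186 and 207 CPM at day 21, at 319, 282, 396, 294 and 263 at day 30, and at 206, 175, 177, 152 and 168 at day 45. All day 30 libraries lay above those of both other days. It rose by 0.64 ± 0.12 (SE, adjusted p = 2.30e-04) and then fell by 0.82 ± 0.11 (SE, adjusted p = 1.13e-05). On TPM + 1 the early rise of P3H3 was 0.15 (adjusted p = 0.238, not called), and it was lower at day 45 than at day 21 (-0.67, adjusted p = 6.47e-05). P3H4 rose by 0.63 ± 0.10 (SE, adjusted p = 3.56e-05) from day 21 to day 30 and stood at 0.41 ± 0.10 (SE, adjusted p = 0.00166) above day 21 at day 45, which was -0.04 on the TPM scale. TMEM38B was at 5.11 to 7.11 CPM at day 21, 5.5 to 8.99 at day 30 and then 14.5 to 19.7 at day 45, a 2.66-fold rise from day 21 to day 45. From day 30 to day 45 it rose by 1.17 ± 0.15 (SE, adjusted p = 4.73e-06), and without day 30 replicates 3 to 5 its rise from day 21 to day 30 was called too (0.50, adjusted p = 0.0243).

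P3H1, CRTAP and PPIB (cyclophilin B) form the complex that 3-hydroxylates single prolines of fibrillar collagens and turns prolyl bonds, and P3H2 is another 3-hydroxylase, which acts on basement membrane collagen among others. P3H2 (chr3:189956728-190122437) was at 30.1, 27.3, 34 and 37.4 CPM at day 21, at 59.5, 73, 63.5, 54.8 and 53.3 at day 30, and at 337, 203, 199, 185 and 295 at day 45. The days did not overlap, and the step to day 45 was the larger one. It rose 7.57-fold from day 21 to day 45 (log2 2.92 ± 0.18, SE, adjusted p = 6.09e-10), and its later change exceeded the earlier one by 1.09 ± 0.28 (SE, adjusted p = 0.00403). That difference was -0.69 (adjusted p = 0.502) with the library titled day 45 replicate 1 at day 30 and 0.83 (adjusted p = 0.185) without day 30 replicates 3 to 5.

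PPIB, next to SPARC the most abundant member per length, was at 454, 439.8, 411 and 500.1 CPM at day 21, at 573, 502, 784, 784 and 703 at day 30, and at 437, 429.6, 530.0, 459 and 384 at day 45. Day 30 lay above day 21, days 21 and 45 overlapped, and the change from day 21 to day 45 was -0.01 ± 0.14 (SE, adjusted p = 0.949). Its rise to day 30 (0.57 ± 0.14, adjusted p = 0.00208) was 0.25 (adjusted p = 0.118) and its decrease after day 30 (-0.58 ± 0.13, adjusted p = 0.00106) was -0.28 (adjusted p = 0.0740) without day 30 replicates 3 to 5. P3H1 was at 347, 321, 311 and 358 CPM at day 21, at 405, 384, 473, 399 and 366 at day 30, and at 325, 298, 307, 315 and 295 at day 45. It was highest at day 30, and it fell by 0.40 ± 0.09 (SE, adjusted p = 0.00107) from there to day 45. Its smaller rise before that (0.28 ± 0.09, adjusted p = 0.0181) was -0.15 on the TPM scale and was lost without day 21 replicate 2 (0.26, adjusted p = 0.0590) or 3 (0.24, adjusted p = 0.0640), without the filter on low counts (0.22, adjusted p = 0.165) and without day 30 replicates 3 to 5 (0.23, adjusted p = 0.0543). CRTAP, the helper subunit, was at 296 to 355 CPM at day 21 and 455 to 509.7 at day 45, and rose by 0.60 ± 0.11 (SE, adjusted p = 1.00e-04). On TPM + 1 the changes from day 21 to day 45 were -0.59 for P3H1 (adjusted p = 1.57e-05), -0.46 for PPIB (adjusted p = 5.10e-04) and 0.09 for CRTAP (adjusted p = 0.360).

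The chaperones bind procollagen in the ER: SERPINH1 (HSP47) clasps the folded helix, and FKBP7, FKBP10 and FKBP14 are prolyl isomerases. SPARC, a matrix protein that also binds collagen and acts as an extracellular chaperone, had by far the highest level of all members, with 18825 TPM on average over the 14 libraries against 1259 for PPIB. SPARC (chr5:151661096-151687165) was at 6119, 5812, 6878 and 6936 CPM at day 21, at 16634, 15748, 17066, 15173 and 12175 at day 30, and at 16865, 11422, 15513, 15092 and 12330.1 at day 45. Day 21 lay below both later days, which overlapped. It rose by 1.25 ± 0.15 (SE, adjusted p = 2.91e-06) from day 21 to day 30, with -0.11 ± 0.14 (SE, adjusted p = 0.523) afterwards, and it held 58.5% of the members' summed TPM at day 21 and 68.2% at day 45.

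FKBP10 (FKBP65), which is needed for lysine hydroxylation of the telopeptides, was at 819.9, 787, 748 and 783 CPM at day 21, at 1195, 1140.0, 1380.4, 1153 and 1122 at day 30, and at 962, 809, 810.4, 719 and 818 at day 45. The day 30 libraries lay above all others and the days on either side overlapped. It rose by 0.61 ± 0.11 (SE, adjusted p = 1.17e-04) and fell by 0.54 ± 0.10 (SE, adjusted p = 2.07e-04). FKBP7 had the same order of days, at 22.9 to 26.2, 33.6 to 47.2 and 26.2 to 29.7 CPM, with a rise of 0.62 ± 0.10 (SE, adjusted p = 6.89e-05). It then fell by 0.40 ± 0.10 (SE, adjusted p = 0.00210), which was -0.29 (adjusted p = 0.0729) with the library titled day 45 replicate 1 at day 30. SERPINH1 was at 839.8 to 941 CPM at day 21, 1187 to 1759 at day 30 and then 1138 to 1379.7 at day 45. It rose by 0.78 ± 0.12 (SE, adjusted p = 2.87e-05) from day 21 to day 30, and its decrease after that (-0.27 ± 0.11, adjusted p = 0.0465) was lost in 12 of the 14 fits that left out 1 library (-0.29 to -0.21, adjusted p = 0.0503 to 0.118), all but those without day 30 replicate 5 or day 45 replicate 2.

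FKBP14 gave opposite answers on the 2 scales at day 30. In CPM it was at 123 to 153 at day 21, 119.8 to 209 at day 30 and then 173 to 229.8 at day 45, with a log2 fold change of 0.26 ± 0.15 (SE, adjusted p = 0.157) at day 30 and 0.50 ± 0.15 (SE, adjusted p = 0.0105) at day 45 against day 21. Without day 30 replicate 5 the former was 0.35 (adjusted p = 0.0497), and without replicates 3 to 5 it was 0.58 (adjusted p = 0.00145). In TPM its mean and SD were 113 ± 12.9 at day 21 (n = 4), 69 ± 31.1 at day 30 (n = 5) and 116 ± 18.4 at day 45 (n = 5). The cause of that difference between scales was not tested.

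COLGALT1 and COLGALT2 put galactose on hydroxylysine, and each rose in both intervals. COLGALT1 was at 183, 177, 175 and 188 CPM at day 21, at 388, 341, 382, 314 and 262 at day 30, and at 426, 407, 476, 402 and 379 at day 45. It was higher in all later libraries than at day 21, with 2.31-fold from day 21 to day 45 (log2 1.21 ± 0.12, SE, adjusted p = 1.03e-07). COLGALT2 (chr1:183929854-184037729) was at 65.3, 53.8, 42.7 and 49.1 CPM at day 21, at 149, 149, 117, 118 and 94.8 at day 30, and at 157, 170.4, 221, 195 and 154 at day 45. The 3 days did not overlap, and the fold was 3.41 (log2 1.77 ± 0.16, SE, adjusted p = 4.70e-08). After day 30 the rises were 0.31 ± 0.11 (adjusted p = 0.0199) for COLGALT1 and 0.51 ± 0.14 (adjusted p = 0.00554) for COLGALT2. Without day 30 replicates 3 to 5 they were 0.19 (adjusted p = 0.153) and 0.25 (adjusted p = 0.216), and without day 45 replicate 3 that of COLGALT1 was 0.26 (adjusted p = 0.0594).

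From day 21 to day 30, 0 of 7 export factors rose and 1 fell (6 fell on TPM + 1), while 22 of the 40 members rose, 3 fell and 15 did not pass (62.5% called, against 54.4% of all genes, 27.2% higher and 27.1% lower). From day 30 to day 45, 5 of 7 export factors rose and 1 fell, while over all members 17 rose and 14 fell (77.5% called, against 56.3% of all genes, 27.6% higher and 28.7% lower). MIA3 (TANGO1, chr1:222618086-222668012), the receptor that loads collagen into carriers at ER exit sites, was at 68.8, 63, 71.9 and 67.8 CPM at day 21, at 60.2, 55.7, 50, 43.9 and 40.1 at day 30, and at 111, 111, 115, 115 and 128 at day 45. Day 30 was lowest and day 45 highest, with no overlap. MIA3 fell by 0.44 ± 0.11 (SE, adjusted p = 0.00222) from day 21 to day 30, a change equal on the TPM scale to that of the median gene (0.01 above it). It then rose by 1.22 ± 0.10 (SE, adjusted p = 9.56e-08), with a difference between the intervals of 1.66 ± 0.18 (SE, adjusted p = 2.53e-06). With the library titled day 45 replicate 1 at day 30, the earlier change was -0.17 (adjusted p = 0.539).

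SEC23A, an inner COPII coat subunit, was at 179, 171, 203 and 214 CPM at day 21, at 227, 210.1, 158, 136 and 142 at day 30, and at 277, 265, 318, 304 and 289.7 at day 45. Day 45 lay above both other days, and at day 30 replicates 1 and 2 were the high ones. It rose by 0.74 ± 0.13 (SE, adjusted p = 1.88e-04) from day 30 to day 45, beside 0.71 ± 0.11 (SE, adjusted p = 3.83e-05) for its partner SEC24D. Their changes from day 21 to day 30 were -0.14 ± 0.14 and -0.08 ± 0.11. The difference between the intervals (0.88 for SEC23A, 0.79 for SEC24D) was 0.22 (adjusted p = 0.418) and 0.27 (adjusted p = 0.237) without day 30 replicates 3 to 5, and was also not called with the library titled day 45 replicate 1 at day 30 (0.62 and 0.52).

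KLHL12, the adaptor of the ubiquitin ligase that enlarges COPII carriers, was at 19.1 to 21.3 CPM at day 21 and 26.2 to 28.3 at day 45, and its rise of 0.41 ± 0.08 (SE, adjusted p = 3.44e-04) was -0.06 on the TPM scale. TRAPPC2 (sedlin), a vesicle tethering subunit whose loss causes a skeletal dysplasia, was at 10.7, 10.3, 11.4 and 10.4 CPM at day 21, at 11.2, 12.9, 12.1, 15.1 and 11.7 at day 30, and at 8.52, 10.3, 9.03, 10.7 and 9.4 at day 45. The outer days overlapped (-0.16 ± 0.11, adjusted p = 0.224), and it has a near-identical copy in the genome, TRAPPC2B, so that its counts are uncertain. CREB3L1 and CREB3L2 are ER-bound transcription factors that switch on secretory genes. CREB3L1 rose by 0.46 ± 0.15 (SE, adjusted p = 0.0124) from day 21 to day 45, or 0.43 (adjusted p = 0.0522) with the library titled day 45 replicate 1 at day 30. CREB3L2 had 0.30 ± 0.13 (SE, adjusted p = 0.0644), which passed without day 30 replicate 1 (0.30, adjusted p = 0.0334) or 5 (0.31, adjusted p = 0.0331).

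All 7 genes of propeptide removal were called from day 21 to day 45, 2 higher and 5 lower, where 57.7% of all genes tested were called (27.1% higher, 30.5% lower). ADAMTS2, ADAMTS3 and ADAMTS14 are the proteases that cut the amino-terminal propeptide of fibrillar procollagens. ADAMTS2 (chr5:179110851-179345430) was at 15.6, 13, 7.84 and 7.17 CPM at day 21, at 31.5, 30.8, 30.8, 25.5 and 23.7 at day 30, and at 115, 71.7, 69.3, 61.3 and 89.1 at day 45. The days did not overlap, and the fold from day 21 to day 45 was 7.45 (log2 2.90 ± 0.23, SE, adjusted p = 1.87e-08). With the library titled day 45 replicate 1 at day 30, the change from day 30 to day 45 was 0.76 (adjusted p = 0.134) in place of 1.51 ± 0.20 (SE, adjusted p = 1.31e-05).

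ADAMTS14 (chr10:70672803-70762441) went the other way. It was at 30.8, 24.1, 18.9 and 16.1 CPM at day 21, at 3.41, 2.14, 4.03, 4.41 and 3.46 at day 30, and at 1.33, 1.31, 0.331, 0.699 and 1.03 at day 45. Again the days did not overlap, and it fell by 4.57 ± 0.29 on the log2 scale (SE, adjusted p = 9.51e-10), a level 23.8-fold lower. ADAMTS3 was at 62.2 to 65.9 CPM at day 21, 31.2 to 77.8 at day 30 and then 26.7 to 42.9 at day 45, and fell by 0.90 ± 0.22 (SE, adjusted p = 0.00227). Of the summed TPM of the 3 proteases, ADAMTS2 held 9.84% ± 2.27 at day 21, 35.2% ± 5.7 at day 30 and 66.9% ± 9.89 at day 45 (SD over 4, 5 and 5 libraries). ADAMTS14 held 23.3% ± 4.13, 5.41% ± 2.35 and 0.904% ± 0.39 on the same days, and ADAMTS3 held 66.9% ± 6.33, 59.4% ± 7.77 and 32.2% ± 10.1. The protease with the highest TPM was thus ADAMTS3 at day 21 and ADAMTS2 at day 45.

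BMP1 and TLL1 cut the carboxy-terminal propeptide, and PCOLCE and PCOLCE2 speed that cut by binding the propeptide. PCOLCE (chr7:100602177-100608175) was at 275, 303, 291 and 345 CPM at day 21, at 367, 318, 542, 438 and 391 at day 30, and at 158, 154, 117, 124 and 115 at day 45. Every day 45 library lay below the libraries of the other days, and it fell by 1.18 ± 0.14 on the log2 scale from day 21 to day 45 (SE, adjusted p = 1.89e-06). Its rise to day 30 (0.44 ± 0.15, adjusted p = 0.0167) was -0.04 on the TPM scale and was not called without day 21 replicate 1 (0.39, adjusted p = 0.0535), without day 30 replicate 3 (0.32, adjusted p = 0.0505) or without day 30 replicates 3 to 5 (0.17, adjusted p = 0.361). PCOLCE2 (chr3:142815922-142889206) was at 10.4 to 14.1 CPM at day 21, 26.3 to 46.7 at day 30 and then 66.6 to 86.9 at day 45, with no overlap. It rose 5.95-fold (log2 2.57 ± 0.15, SE, adjusted p = 2.83e-10).

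BMP1 was at 103 to 114 CPM at day 21, 77.4 to 108 at day 30 and then 54.7 to 72.8 at day 45. It fell by 0.84 ± 0.11 (SE, adjusted p = 3.00e-06) from day 21 to day 45. In CPM its change was -0.19 ± 0.11 from day 21 to day 30 (adjusted p = 0.15) and -0.65 ± 0.10 from day 30 to day 45 (adjusted p = 4.46e-05). On TPM + 1 these were -0.71 (adjusted p = 1.18e-05) and -0.48 (adjusted p = 3.98e-04), and without day 30 replicates 3 to 5 the first was -0.36 in CPM (adjusted p = 0.0233). TLL1, the related protease, was scarce: 2.25 to 2.81 CPM at day 21 and 0.0992 to 0.588 in the later libraries. It fell by 2.79 ± 0.33 on the log2 scale (SE, adjusted p = 1.33e-06).

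Of the crosslinking enzymes, LOX rose most. LOX (chr5:122063195-122078360) was at 205, 203, 198 and 214 CPM at day 21, at 372, 383, 255, 204 and 221 at day 30, and at 915, 719, 638, 666 and 915 at day 45. Day 45 lay above all other libraries, and at day 30 replicates 1 and 2 lay above day 21 while replicate 4 lay within its range and replicate 5 just above. The fold from day 21 to day 45 was 3.76 (log2 1.91 ± 0.19, SE, adjusted p = 1.41e-07). Its change from day 21 to day 30 was 0.49 ± 0.18 (SE, adjusted p = 0.0289), was -0.37 on the TPM scale (-0.02 relative to the median gene there), and was not called without any 1 of day 21 replicates 1 (0.48), 2 (0.48) and 3 (0.47) and day 30 replicates 1 (0.38) and 2 (0.36), with adjusted p of 0.0569 to 0.0793, nor without the filter on low counts (0.43, adjusted p = 0.0722).

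LOXL2, the most abundant of the family per length, was at 1097, 1005, 1016 and 1136 CPM at day 21, at 1516, 1241, 1547, 1108 and 999 at day 30, and at 1796, 1531, 1363, 1242 and 1512 at day 45. Day 45 lay above day 21, and day 30 overlapped with both. It rose by 0.49 ± 0.14 (SE, adjusted p = 0.00725) from day 21 to day 45, and by 0.41 (adjusted p = 0.0573, not called) with the library titled day 45 replicate 1 at day 30. LOXL1, an oxidase best known for elastic fibres, was at 48.7, 45.1, 38.4 and 41.6 CPM at day 21, at 34.4, 27.8, 55.5, 46.6 and 46.8 at day 30, and at 29.4, 30.7, 32, 24.3 and 20.3 at day 45. Every day 45 library lay below day 21, and it fell by 0.67 ± 0.17 (SE, adjusted p = 0.00307). LOXL3 and LOXL4 rose by 0.96 ± 0.14 (SE, adjusted p = 1.68e-05) and 0.88 ± 0.19 (SE, adjusted p = 7.76e-04). On TPM + 1 the change of LOXL2 from day 21 to day 45 was 0.00445 (adjusted p = 0.982) and that of LOXL4 0.37 (adjusted p = 0.0924). Of the family's summed TPM, LOX held 15.1% ± 1.39 at day 21 and 34% ± 3.09 at day 45, and LOXL2 held 58% ± 0.651 and 41.8% ± 1.53 (SD over 4 and 5 libraries).

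Several members overlap genes on the other strand in GENCODE 29. The library kit does not mark strand, so reads in stretches shared by both genes cannot be told apart by strand. The overlaps are between whole gene spans, introns included, and the reads concerned were not counted. Among these members were P4HA2 with P4HA2-AS1, PDLIM4 and SLC22A4, LOX with SRFBP1, and PPIB with SNX22. LOXL3 overlaps HTRA2 and DOK1, and PLOD3 overlaps ZNHIT1. P3H3 overlaps GPR162 on the same strand.

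Ratios of TPM in the same library do not depend on library scaling. They are given for 9 pairs of related members, which were chosen after their values were seen, so the ratios are a description without a test. P4HA2 per P4HA1 was 0.381 ± 0.025 at day 21 (SD, n = 4), 0.555 ± 0.113 at day 30 and 1.07 ± 0.149 at day 45 (both SD, n = 5), so that the gene scarcer at day 21 stood level with the other at day 45. The 3 days did not overlap. PLOD2 per PLOD1 went from 0.438 to 0.712 at day 21 to 1.22 to 1.55 at day 45, and P3H2 per P3H1 from 0.0656 to 0.101 to 0.521 to 0.84. In both pairs day 45 lay above all other libraries.

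In propeptide removal PCOLCE2 per PCOLCE was 0.0337 ± 0.00548 at day 21 and 0.459 ± 0.0902 at day 45 (SD over 4 and 5 libraries), a 13.5-fold shift. ADAMTS2 per ADAMTS3 was 0.151 ± 0.0483 and 2.35 ± 1.13, a 14.8-fold shift from a ratio below 1 in every day 21 library to one above 1 in every day 45 library. LOX per LOXL2 was 0.261 ± 0.0246 at day 21, 0.25 ± 0.0691 at day 30 and 0.817 ± 0.101 at day 45, so that days 21 and 30 overlapped and day 45 lay above both. COLGALT2 per COLGALT1 was 0.173 to 0.252 at day 21 and 0.248 to 0.333 at day 45, with an overlap. FKBP14 per FKBP10 was 0.117 to 0.181 at day 21 and 0.0458 to 0.107 at day 30, with no overlap on the TPM scale. CREB3L1 per CREB3L2 was 0.128 and 0.135 in day 30 replicates 1 and 2 and 0.280 to 0.316 in replicates 3 to 5, with days 21 and 45 between them.

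**Figure D3:**
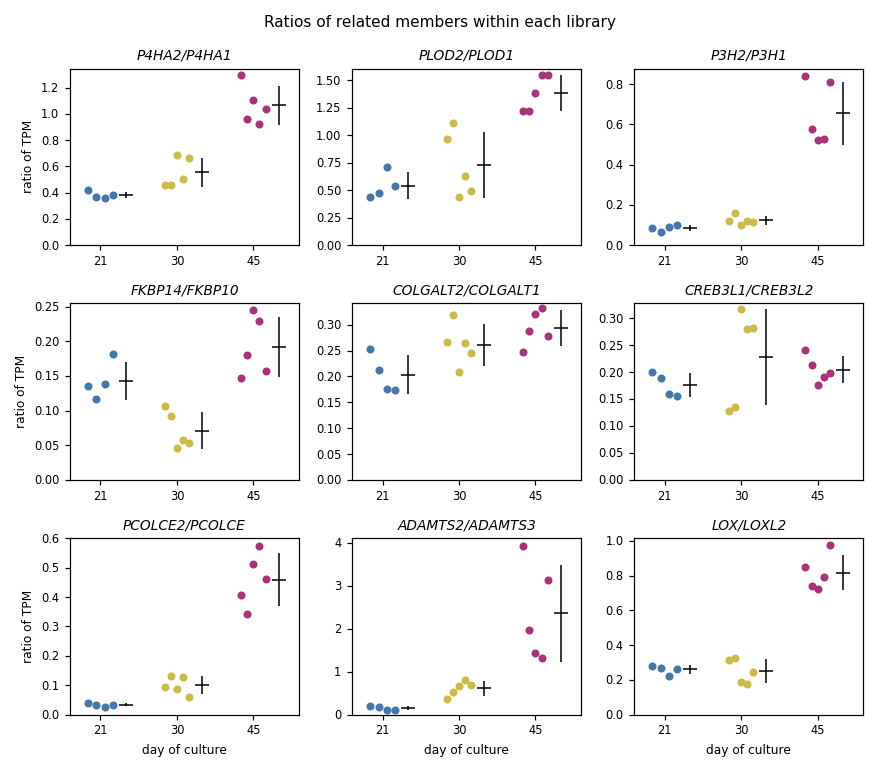
Ratio of the TPM of 9 pairs of related members (y axis, from 0) in each of the 14 libraries against day of culture (x axis); points are libraries, bars mean and SD. P4HA2/P4HA1, PLOD2/PLOD1, P3H2/P3H1, PCOLCE2/PCOLCE, ADAMTS2/ADAMTS3 and LOX/LOXL2 were highest at day 45 with no overlap, and CREB3L1/CREB3L2 split the day 30 libraries.

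Over the 3 days, 9 members rose in both intervals (ADAMTS2, COLGALT1, COLGALT2, LOX, LOXL3, P3H2, P4HA2, PCOLCE2 and PLOD2), which is 22.5% of the members beside 5.61% of all genes tested. On TPM + 1 this held for 5, without LOX, LOXL3, P3H2 and PLOD2. In CPM 4 rose to day 30 without a later call (P4HA1, P4HB, PLOD1 and SPARC; 10% beside 10.6% of all genes). Another 9 rose and then fell (22.5% beside 11% of all genes): the chaperones FKBP7, FKBP10 and SERPINH1, and P3H1, P3H3, P3H4, PPIB, P4HA3 and PCOLCE. On TPM + 1 only FKBP7 and FKBP10 did so. In 7 the rise was called from day 30 to day 45 alone (17.5% beside 10% of all genes), and 4 of these are export factors (SEC23A, SEC24D, KLHL12 and CREB3L2). MIA3 fell and then rose (1 member, 2.50% beside 12% of all genes), with and without day 30 replicates 3 to 5, whereas 7 members did so on TPM + 1 (CREB3L2, CRTAP, FKBP14, KLHL12, MIA3, SEC23A and SEC24D).

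The change of the second interval differed from that of the first in 26 members, above it in 8 and below it in 18 (65.0% called, against 52.7% of all genes, 25.3% higher and 27.5% lower). On TPM + 1 it was above in 14 and below in 10, beside 7348 above and 2331 below of the 17838 genes tested. Single libraries decided some of the calls: the earlier rises of LOX, P3H1 and PCOLCE and the later changes of COLGALT1 and SERPINH1, with the values given above. The later decrease of P3H4 (-0.23 ± 0.09, adjusted p = 0.0403) was lost in 9 of 14 fits without 1 library (-0.23 to -0.18, adjusted p = 0.0546 to 0.106), and that of ADAMTS3 in 9 as well (-0.52 to -0.29, adjusted p = 0.0570 to 0.164). For BMP1 the difference between the intervals was lost in 7 (-0.46 to -0.34, adjusted p = 0.0506 to 0.136). Without day 30 replicates 3 to 5, 6 members rose in both intervals (ADAMTS2, LOX, P3H2, P4HA2, PCOLCE2 and TMEM38B). In that setting 4 rose and then fell (FKBP7, FKBP10, P3H3 and SERPINH1). The share of all genes with each pattern was not counted in that setting or on TPM + 1.

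The summed level of the collagen chains that the members act on grew more than that of the members. The typical gene of the 2 lists differed little, with a median log2 fold change from day 21 to day 45 of 0.56 over the 18 chains and 0.49 over the 40 members. A sum follows its most abundant genes, so the shares below do not describe the typical chain. Of 18 collagen genes 10 rose, 4 fell and 4 did not pass from day 21 to day 45 (7 and 7 on TPM + 1), and COL2A1, the chain of type II collagen, rose by 2.48 ± 0.25 (SE, adjusted p = 2.36e-07), 2.03 of it by day 30. COL10A1, the collagen of hypertrophic cartilage, rose by 7.30 ± 0.38 (SE, adjusted p = 1.48e-10). The summed TPM of the 40 members was 55.6% ± 3.94 of that of the 18 chains at day 21, 42.2% ± 7.79 at day 30 and 37.3% ± 5.91 at day 45 (SD over 4, 5 and 5 libraries). Without SPARC it was 23% ± 0.93, 13.3% ± 2.99 and 11.8% ± 1.62, and every later library lay below those of day 21. These shares were described after their values were seen and were not tested.

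By role, propeptide removal stood at 1.64% ± 0.133 of the chains' TPM at day 21 and 0.374% ± 0.054 at day 45. The prolyl 3-hydroxylase complex went from 5.37% ± 0.322 to 2.23% ± 0.349. Crosslinking was lowest at day 30, with 2.93% ± 0.158, 1.34% ± 0.168 and 2% ± 0.214, and so was export, with 1.31% ± 0.112, 0.471% ± 0.0763 and 0.674% ± 0.125. Glycosylation was at 0.34% ± 0.0104, 0.258% ± 0.0338 and 0.301% ± 0.0554, and at day 45 it kept proportionally the nearest to its day 21 value. At day 30 the chaperones, which SPARC dominates, kept nearer to theirs, with 37.6% ± 3.42, 32.1% ± 5.52 and 27.8% ± 5.15 on the same days.

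**Figure D4:**
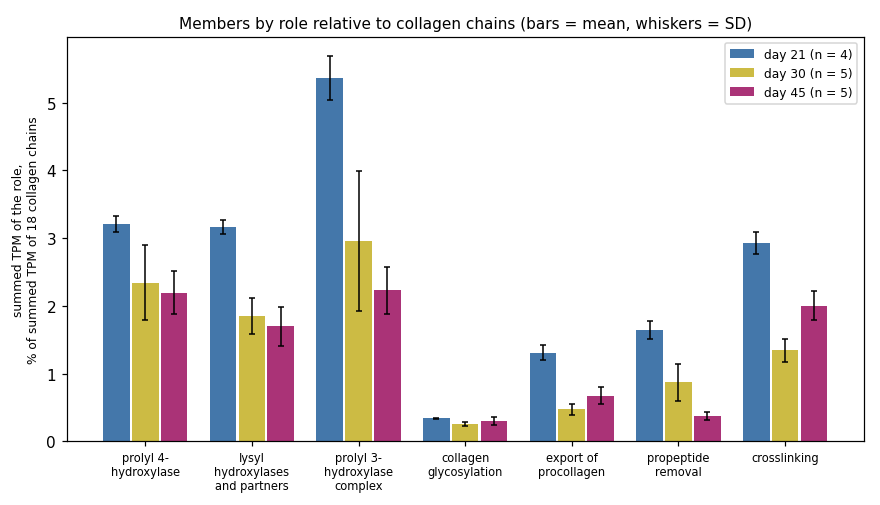
Summed TPM of the members of 7 roles as a percent of the summed TPM of 18 collagen chains (y axis, from 0); bars are means, whiskers SD, of 4 libraries at day 21 and 5 at days 30 and 45. The chaperones, which SPARC dominates, are left out of the plot. Propeptide removal went from 1.64% to 0.374%, and export and crosslinking were lowest at day 30.

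Of 20 general genes of the COPII coat and ER exit 16 rose, 1 fell and 3 did not pass from day 21 to day 45 (2 and 3 on TPM + 1), with a median log2 fold change of 0.43. From day 21 to day 30, 10 of the 20 rose and 0 fell (2 and 8 on TPM + 1), beside 0 risers among the 7 export members. From day 30 to day 45, 8 of the 20 rose and 5 fell, beside 5 risers and 1 faller among the export members. The late rise was not particular to the members. The SEC23 and SEC24 genes of the general list (SEC23B, SEC24A, SEC24B and SEC24C) were not called in the first interval and rose in the second. Of 16 genes of general ER folding 4 rose, 2 fell and 10 did not pass at day 45 (1 and 10 on TPM + 1), with a median of 0.03. From day 21 to day 30, 2 of the 16 rose and 4 fell (1 and 13 on TPM + 1), with a median of -0.17, beside 4 risers among the 5 collagen chaperones. ERO1A, the oxidase that drives disulfide formation and is itself induced at low oxygen, rose by 2.16 ± 0.18 (SE, adjusted p = 1.88e-08). The ER stress response element of the unfolded protein response, searched on both strands, was in 6 of 15 promoter windows of the ER folding list and in 0 of 32 of the members, beside 22 of all 27305.

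Of 4 tested genes of the CREB3 family and its site proteases 2 rose and 0 fell at day 45 (1 and 1 on TPM + 1), with a median of 0.44. Of 6 genes of collagen uptake and breakdown 2 rose and 3 fell (0 and 4 on TPM + 1). Among the latter was MMP2, a gelatinase, which fell by 2.16 ± 0.14 (SE, adjusted p = 8.97e-10).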

How the data were processed

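RNA of whole pellets was measured by RNA-seq in 14 libraries of 3 days. Per the labels' protocols, the library kit was TruSeq RNA Library Prep v2, which does not mark strand. Per the submitters' processing notes, STAR 2.4.2a, RSEM 1.2.25 and GRCh38 were used. The sources used here do not give the annotation release. Per the file headers, the deposited tables give expected counts, TPM and a length per gene. The deposited expected counts were rounded, and the authors' TPM values were used for levels between genes, ratios, shares and alternatives. The deposited length was used only for the check and offset by length. TMM scaling of the rounded counts gave the CPM values.

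The filter filterByExpr, grouped by day, left 17838 genes. They were fitted in 1 model over the 14 libraries with edgeR 4.0.16 in R 4.3.3 (robust quasi-likelihood fit, F-test). Benjamini-Hochberg adjustment was over all genes tested, and a gene was called below an adjusted p of 0.05. SEs were taken as the absolute log2 fold change over the square root of F. The fit was tested on simulated data. Ratios of related members were described without a test.

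The members, lists and tests were chosen with earlier results of these data known. Members given per library are, in each role, the one with the highest mean TPM and those with the largest and smallest log2 fold change of day 45 against day 21. Other members and genes given with values (P4HA1, FKBP14, PCOLCE2, COL2A1, COL10A1, ERO1A and MMP2 among them), and the ratios and shares, were chosen after their values were seen. No 2 libraries of a day were as alike as sampling noise allows (lowest chi-square over its degrees of freedom 7.81), so each counted once. Same-numbered libraries of different days had correlations of -0.25 to 0.12 in 13 pairs, beside -0.22 to 0.23 in pairs of different numbers. The numbers thus showed no pairing and were not used to pair samples. With 4 or 5 libraries per day, this check cannot exclude that same-numbered libraries share a culture or batch. Alternatives were DESeq2 1.42.0, its size factors in edgeR, 2 other filters, limma 3.58.1 on log2 of TPM + 1 or + 0.1, only the days compared, a replicate block, each library left out, the library with the conflicting label at day 30, day 30 replicates 3 to 5 left out, a length offset, and the median TPM in place of the mean. Promoters are RefSeq windows of GRCh38.p14, with an entry for 32 of 40 members. Protein features were not analysed here. Intervals for counting error are not given, since the spread between libraries is wider.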

Additional observations from a re-analysis of the deposited data

Results flagged for a closer look

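In groups of 4 or 5 libraries of 1 day, the highest or lowest library of each member was compared with the rest by Dixon's criterion, and 4 of 120 groups were singled out, where chance alone gives about 1 in 20. FKBP10 stood at 1380.4 CPM in day 30 replicate 3, above 1122 to 1195 in the other day 30 libraries. FKBP7 stood at 47.2 CPM in day 30 replicate 4, above 33.6 to 36.6 in the others. PCOLCE2 stood at 26.3 CPM in day 30 replicate 5, below 42.2 to 46.7. MIA3 stood at 128 CPM in day 45 replicate 5, above 111 to 115. Of these 4 libraries 3 are among day 30 replicates 3 to 5, which stood apart by gene length.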

How the results depend on the processing

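From day 21 to day 45 the members' calls kept their direction and side under DESeq2 size factors and both filters on low counts, and leaving out each library gave 24 to 25 higher and 6 lower. On TPM + 1 and on TPM + 0.1 alike, 14 were higher and 13 lower from day 21 to day 45, 10 higher and 13 lower from day 21 to day 30, and 14 higher and 10 lower for the later minus the earlier change. Over all 17838 genes, TPM + 1 gave 2140 higher and 8720 lower, then 1788 and 9032, then 7348 and 2331, in the same order. The median gene moves by -0.34 on that scale from day 21 to day 45. Among members called on at least 1 of the scales compared (others are not listed), signs reversed there (TPM + 1, then TPM + 0.1) from day 21 to day 45 for PLOD3 (-0.41, -0.42), KLHL12 (-0.0558, -0.0595), P3H4 (-0.0424, -0.0427) and FKBP10 (-0.39, -0.39). From day 21 to day 30 they did for PLOD1 (-0.00550, -0.00553), FKBP14 (-0.81, -0.82), PCOLCE (-0.0436, -0.0437), LOX (-0.37, -0.37), P3H1 (-0.15, -0.15), CRTAP (-0.30, -0.31) and TRAPPC2 (-0.55, -0.59). For the later minus the earlier change they did for FKBP14 (1.65, 1.67), BMP1 (0.22, 0.22) and TRAPPC2 (0.55, 0.59). The length offset reversed CREB3L2 in those 3 contrasts other than day 45 against day 21 (0.47, -0.10, -0.58). With the library titled day 45 replicate 1 at day 30, calls of day 45 against day 30 were 6466 of all genes, 11 members higher and 9 lower, 2 members were higher for the later minus the earlier change, and P3H2 (-0.69) and LOX (-0.0272) reversed there. Without day 30 replicates 3 to 5, 5 members were lower from day 21 to day 30, and for the later minus the earlier change 5659 genes were called and 4 members were higher. The causes were not tested. With a replicate block, though the numbers showed no pairing, 9728, 8872, 9519 and 8632 genes were called in the 4 contrasts. In that fit 25 members were higher and 6 lower from day 21 to day 45. Members with few reads, such as TLL1, have the least precision.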
